A study of Mus musculus with 2 samples.

Results

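Dpp4, Dpp7, Dpp8, Dpp9 and Ada were followed across the immune cells of mouse tumours. These are 4 dipeptidyl peptidase genes and the gene of adenosine deaminase, chosen by symbol as 5 of the 32285 gene rows that both count matrices list. Their identifiers in the files are ENSMUSG00000035000 (Dpp4), ENSMUSG00000026958 (Dpp7), ENSMUSG00000032393 (Dpp8), ENSMUSG00000001229 (Dpp9) and ENSMUSG00000017697 (Ada). Wild-type mice (labelled WT) carried tumours of MC38-OVA, colon carcinoma cells of the mouse that express ovalbumin, a model antigen. The mice ate either a control diet or food with sitagliptin, a drug that blocks the DPP4 enzyme. Cells positive for CD45, the surface protein encoded by Ptprc, were taken from the tumours with magnetic beads, and each diet gave 1 droplet single-cell library made with a 5' kit. The sources used here give no age, sex or strain background of the mice, no dose or length of feeding, and no number of mice per library.

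DPP4, also known as CD26, is a cell surface enzyme that removes dipeptides from the amino end of peptides with proline or alanine in the second place, among them several chemokines and gut hormones. On lymphocytes of some species it also binds adenosine deaminase, the enzyme that turns adenosine into inosine, and in mice DPP4 is known from T cells and from dendritic cells, above all the cross-presenting cDC1. DPP8 and DPP9 are close relatives that work inside the cell and hold the NLRP1 and CARD8 inflammasome sensors in check, and DPP7 is a peptidase of vesicles and lysosomes.

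The control library held 8694 barcodes with 64139749 UMIs (unique molecular identifiers, each counting 1 captured RNA molecule) and the sitagliptin library 9766 barcodes with 76788699 UMIs, at medians of 5074 and 5158.5 UMIs a barcode. The libraries shared 132 barcode sequences. After the 6% of barcodes with the highest doublet scores were set aside, 8172 and 9180 remained. Cell classes were called from UMIs of marker genes, and the 5 genes took no part in those calls. Levels are given as CPM, the UMIs of a gene scaled to a class total of 1000000 UMIs, with exact Poisson 95% intervals. Ratios between summed counts carry exact conditional binomial 95% intervals. With 1 library for each diet there is no replicate check, no test and no p-value, and all intervals cover counting error only.

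The marker lists were summed in each class. They share genes with the gates that called the classes, so these sums describe the classes and are no separate check. NK cells, for example, were called only without a UMI of Cd3d, Cd3e, Cd3g and Trac, which are on the T cell list. In CD8 T cells that were not cycling, the 8 T cell markers summed to 2590 and 2910 CPM (control, then sitagliptin), against 279 and 285 CPM in NK cells, where 5 and 6 of the 8 were at 0. The cDC1 list (Xcr1, Clec9a and 4 others) summed to 1160 and 1336 CPM in cDC1 and to 134 and 147 CPM in cDC2. Mature dendritic cells, marked by Ccr7 and Fscn1, had 5556 and 7436 CPM of their own list. The cDC2 class was less sharply marked. Its own list summed to 853 and 1086 CPM there, to 464 and 632 CPM in mature dendritic cells and to 541 and 659 CPM in plasmacytoid ones. In cDC2 the monocyte list was at 1163 and 401 CPM and the mature list at 453 and 1427 CPM. The name cDC2 thus stands for barcodes that passed this gate. Despite the sort on CD45, 12.9% of control and 6.63% of sitagliptin barcodes passed a gate for cells with little Ptprc RNA. The gate asked for no Ptprc UMI at a depth of at least 5000 UMIs. It also asked for under 1000 CPM of C1qa, C1qb and C1qc together and under 2 UMIs of Cd3d, Cd3e, Cd3g and Trac. Deep barcodes without Ptprc that broke these limits were left in no class. The 6 epithelial markers that were to mark tumour cells summed to 0.246 and 0.666 CPM in these barcodes, with 3 and 2 of the 6 at 0, while 5 fibroblast markers such as Dcn and Col3a1 summed to 307 and 415 CPM. They are called Ptprc-low cells here and given no cell type.

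The upstream sequences of Dpp4 and Dpp8 are shown because these genes had the narrowest and the most even spread over the classes. Each is the 250 bases before the annotated start, read 5' to 3' on the gene's own strand from RefSeq (GRCm38.p6), where all 5 members matched. Dpp4 is at chr2:62412232-62412481 on the minus strand and Dpp8 at chr9:65032208-65032457 on the plus strand. Capitals mark TATAAA in the first and GGGCGG in the second.
Dpp4: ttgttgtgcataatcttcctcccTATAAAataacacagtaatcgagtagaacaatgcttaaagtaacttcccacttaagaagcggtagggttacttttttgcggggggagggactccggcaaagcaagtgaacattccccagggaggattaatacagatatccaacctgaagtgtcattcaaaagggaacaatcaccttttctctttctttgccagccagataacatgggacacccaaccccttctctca
Dpp8: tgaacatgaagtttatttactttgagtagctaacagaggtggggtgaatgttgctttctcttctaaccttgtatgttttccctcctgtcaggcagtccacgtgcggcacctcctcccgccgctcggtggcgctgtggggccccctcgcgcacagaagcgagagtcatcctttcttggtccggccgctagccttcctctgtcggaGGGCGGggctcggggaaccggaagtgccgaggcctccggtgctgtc
The Dpp4 window held 4 CpG pairs and the Dpp8 window 17, beside a median of 6 over 32851 windows of the same length. Dpp7, Dpp9 and Ada held 9, 8 and 14. TATAAA, searched on both strands, was found in the Dpp4 window alone among the 5, starting 227 bases before the annotated start, and 12.4% of all windows held it. GGGCGG, also searched on both strands, was found in the windows of Dpp7, Dpp8 and Ada, and 32.7% of all windows held it. These letter matches are descriptions of the windows and were not tied to any binding.

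Dpp4 was carried by dendritic cells and CD8 T cells, and NK cells had none. With mixed barcodes (those with marker UMIs of another lineage too) left out, its level was highest in cDC1, the dendritic cells known for presenting antigen to CD8 T cells, at 192 CPM (114 to 303) in the control and 217 CPM (157 to 292) in the sitagliptin library. Of 41 cDC1 barcodes, 28 had at least 1 Dpp4 UMI. Mature dendritic cells followed at 119 CPM (82.1 to 166) and 149 CPM (106 to 204). cDC2, the dendritic cells known for presenting antigen to CD4 T cells, had 65.8 CPM (42.2 to 97.9) and 98.2 CPM (69.5 to 135). Plasmacytoid dendritic cells, the interferon producers, had 38.7 and 41.2 CPM from 3 and 5 UMIs.

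Among T cells, Dpp4 was at 72.6 CPM (48.6 to 104) and 87.9 CPM (68.3 to 111) in CD8 T cells that were not cycling, and at 60.8 CPM (37.1 to 93.9) and 92.0 CPM (67.6 to 122) in cycling CD8 T cells. T cells with neither a clean CD4 nor a clean CD8 call had 26.2 CPM (10.6 to 54.1) and 49.97 CPM (31.3 to 75.6). CD4 T cells that were not regulatory gave only 1 Dpp4 UMI in each library, from 13 and 19 barcodes. Their level of 12.2 CPM had an interval from 0.308 to 67.8 in the control library, and the 9.69 CPM in the sitagliptin library one from 0.245 to 54.0. Regulatory T cells gave 1 and 2 UMIs from 6 and 15 barcodes. Over both libraries CD4 T cells had 10.8 CPM (1.31 to 39.0) and regulatory T cells 19.3 CPM (3.98 to 56.4). With mixed barcodes left out, both intervals lie below that of CD8 T cells not cycling (67.1 to 101), although they rest on 2 and 3 UMIs.

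**Figure D1:**
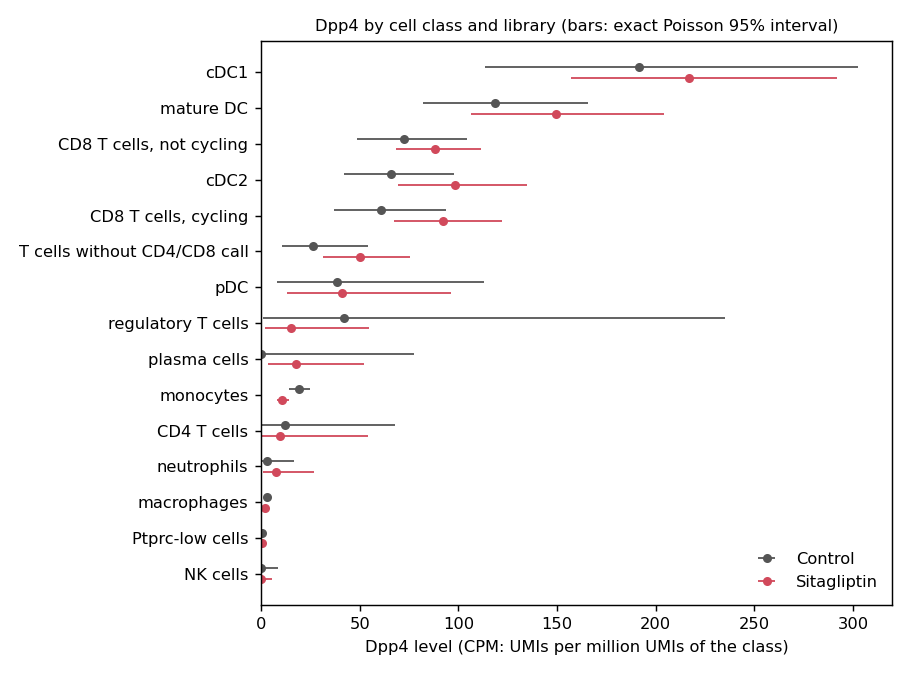
Dpp4 level in CPM (x axis) for each cell class (y axis, ordered by the level over both libraries), with the control library in grey and the sitagliptin library in red; bars are exact Poisson 95% intervals and cover counting error only. cDC1 are at the top with 192 and 217 CPM, and NK cells at the bottom have no Dpp4 UMI.

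With both libraries summed, the order of Dpp4 levels ran cDC1 (209 CPM), mature dendritic cells (133 CPM), CD8 T cells not cycling (82.7 CPM), cDC2 (82.5 CPM), cycling CD8 T cells (79.8 CPM), T cells without a clean call (41.0 CPM) and plasmacytoid dendritic cells (40.2 CPM). cDC1 stood above mature dendritic cells by 1.57-fold (1.10 to 2.23), although within each library this interval included 1. Mature dendritic cells stood above CD8 T cells not cycling by 1.61-fold (1.17 to 2.21). CD8 T cells not cycling, cDC2 and cycling CD8 T cells could not be told apart, and cycling over non-cycling CD8 T cells came to 0.965-fold (0.696 to 1.33). All CD8 T cells stood above T cells without a clean call by 1.99-fold (1.33 to 3.06), in the same direction in both libraries (2.56-fold and 1.79-fold). The T cells without a clean call also had more of the 8 NK cell markers (397 and 472 CPM) than CD8 T cells not cycling (133 and 116 CPM), and the part of this in their Dpp4 level was not tested. Dendritic cells as a whole exceeded CD8 T cells by 1.52-fold (1.05 to 2.22) in the control and by 1.58-fold (1.22 to 2.06) in the sitagliptin library.

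Leaving out the mixed barcodes sets the size of the levels and the first place in the order. When they were kept, mature dendritic cells came first at 116 CPM (91.1 to 146), ahead of cDC1 at 100.4 CPM (79.3 to 125), and Dpp4 was at 65.4 CPM in cDC2, 34.8 CPM in CD8 T cells not cycling, 34.6 CPM in cycling CD8 T cells and 24.6 CPM in T cells without a clean call. CD4 T cells then had 20.4 CPM (13.9 to 29.0) and regulatory T cells 19.2 CPM (8.80 to 36.5). The interval of regulatory T cells then overlapped that of CD8 T cells not cycling (30.3 to 39.7). Mixed barcodes themselves had 21.8 and 23.6 CPM of Dpp4 at median depths of 8658.5 and 10128 UMIs.

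Below the dendritic cells, the CD8 T cells and the T cells without a clean call, the level dropped steeply. CD4 and regulatory T cells could not be told apart from monocytes, whose 13.8 CPM over both libraries lay inside their intervals. Monocytes had 19.1 CPM (14.2 to 24.99) and 10.8 CPM (8.03 to 14.1), and macrophages 3.14 CPM (2.32 to 4.17) and 1.96 CPM (1.40 to 2.65). Monocytes thus exceeded macrophages by 6.06-fold (4.01 to 9.17) and 5.50-fold (3.58 to 8.49). Ptprc-low cells, the deepest class at medians of 14861 and 18975 UMIs, had 6 Dpp4 UMIs in each library, or 0.369 and 0.4996 CPM. NK cells had 0 Dpp4 UMIs in 87 and 134 barcodes, which allows shares of barcodes with a UMI of up to 3.45% and 2.24% (3 counts of each total). This limits barcodes with a UMI, not cells that express the gene.

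The share of barcodes with a Dpp4 UMI was 73.3% and 65.4% in cDC1, 35.0% and 41.2% in mature dendritic cells, 30.9% and 39.1% in cDC2, 24.6% and 40.6% in cycling CD8 T cells, and 20.6% and 24.8% in CD8 T cells not cycling, at median depths between 2883 and 7619 UMIs. At these unequal depths, CD8 T cells not cycling had a lower share than cDC2 at about the same level. After the thinning given below, this order held in the sitagliptin library only. In Ptprc-low cells, which are not expected to be T or dendritic cells and serve as the background, the share was 0.476% and 0.821%, and in macrophages 2.15% and 1.65% at 6764 and 8358.5 UMIs. After every barcode was thinned to 2000 UMIs, a depth that none fell short of, the shares were 60% and 46.2% in cDC1, 13.2% and 26.1% in cDC2, 14.04% and 17.4% in cycling CD8 T cells, 15.9% and 17.3% in CD8 T cells not cycling, and 0.812% and 0.506% in macrophages. Most positive CD8 T cells held a single Dpp4 UMI (25 of 36 and 58 of 81), and the highest count in a barcode was 7. Dendritic cells more often held several: 6 of 53 and 15 of 65 positive barcodes had 3 or more.

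T cells and dendritic cells made up a small part of each library and carried a large part of its Dpp4. The control library held 493 Dpp4 UMIs and the sitagliptin library 693. T cells, with 1.87% and 2.79% of all UMIs, held 11.8% and 20.2% of the Dpp4 UMIs. Dendritic cells held 15.4% and 17.3% from 1.27% and 1.20% of all UMIs. Monocytes and macrophages together gave 100 and 93 Dpp4 UMIs. A further 31.2% and 27.6% lay in mixed barcodes and 19.3% and 19.2% in barcodes in no class, so these parts of the Dpp4 signal have no cell type.

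**Figure D2:**
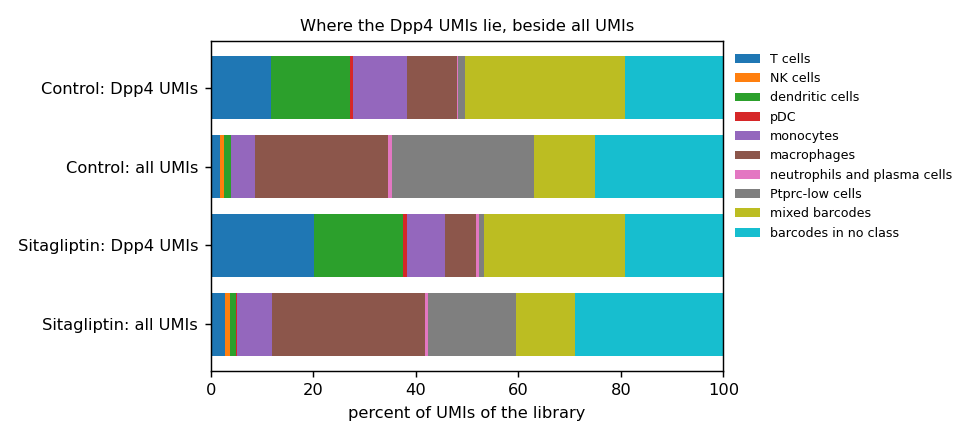
Share of UMIs in percent (x axis) by cell class (colours) for the Dpp4 UMIs and for all UMIs of each library (4 bars). T cells and dendritic cells hold 11.8% and 15.4% of the control library's Dpp4 UMIs and 20.2% and 17.3% of the sitagliptin library's, while mixed barcodes hold 31.2% and 27.6%.

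Dpp8, the cytosolic peptidase, was spread evenly. Its level lay between 39.9 CPM in cDC2 and 75.4 CPM in plasmacytoid dendritic cells over both libraries in all classes apart from plasma cells, which gave 4 UMIs. No neighbours in that order differed beyond their counting intervals. T cells had 54.5 CPM (41.6 to 70.1) and 63.3 CPM (52.6 to 75.4), and macrophages 47.5 CPM (44.1 to 51.1) and 49.5 CPM (46.6 to 52.6). Ptprc-low cells were slightly lower, at 40.9 and 40.7 CPM, and T cells exceeded them by 1.33-fold (1.005 to 1.74) and 1.55-fold (1.27 to 1.90).

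Dpp9, its close relative, was higher in Ptprc-low cells than in macrophages. Ptprc-low cells had 18.1 CPM (16.1 to 20.3) and 16.7 CPM (14.4 to 19.1), against 13.1 CPM (11.3 to 15.05) and 10.02 CPM (8.71 to 11.5). The ratio was 1.38-fold (1.15 to 1.66) and 1.66-fold (1.36 to 2.03). Over both libraries CD8 T cells not cycling, with 17.9 CPM (11.1 to 27.4) from 21 UMIs, could not be told apart from the 17.5 CPM of Ptprc-low cells, and plasmacytoid dendritic cells and regulatory T cells had higher values from 5 and 3 UMIs. All CD8 T cells had 23.3 and 13.2 CPM of Dpp9 from 17 UMIs in each library, and dendritic cells 12.1 and 4.73 CPM from 9 and 4 UMIs.

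Dpp7, the lysosomal peptidase, was highest in macrophages among the classes with at least 20 UMIs of it. Macrophages had 12.9 CPM (11.2 to 14.8) and 10.9 CPM (9.51 to 12.4). They exceeded monocytes by 3.20-fold (1.75 to 6.52) and 2.10-fold (1.39 to 3.32), and Ptprc-low cells by 2.23-fold (1.74 to 2.88) and 2.33-fold (1.74 to 3.18). T cells gave 3 and 4 Dpp7 UMIs, for 4.74-fold (1.60 to 23.2) and 5.33-fold (2.05 to 19.7) more in macrophages. The cDC1 level of 13.7 CPM over both libraries rests on 4 UMIs.

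Ada was barely counted in the cells that carried Dpp4. T cells gave 2 and 3 Ada UMIs and dendritic cells 3 in each library, at or under the floor of 3 counts. Only 1 of 36 control and 0 of 81 sitagliptin CD8 T cells with a Dpp4 UMI also had an Ada UMI. The largest part of Ada lay in Ptprc-low cells, at 10.1 CPM (8.61 to 11.8) and 9.74 CPM (8.06 to 11.7), which held 48.0% and 39.4% of all Ada UMIs. They exceeded macrophages, at 3.21 and 2.77 CPM, by 3.14-fold (2.27 to 4.42) and 3.52-fold (2.55 to 4.91). Plasma cells had the highest Ada level, 41.9 and 35.5 CPM, from 2 and 6 UMIs in 3 and 12 barcodes.

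**Figure D3:**
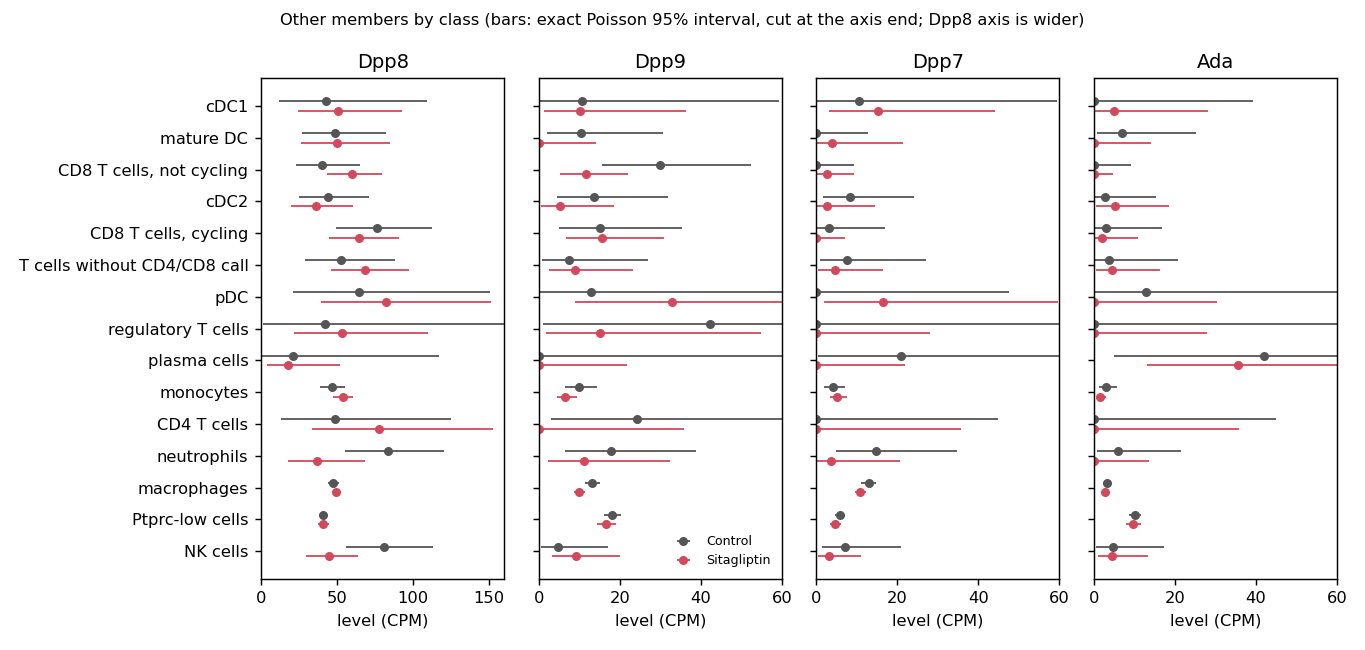
Levels in CPM (x axes) of Dpp8, Dpp9, Dpp7 and Ada by cell class (y axis, in the order of the Dpp4 levels), with the control library in grey and the sitagliptin library in red; bars are exact Poisson 95% intervals, and the Dpp8 axis is wider. Dpp8 lies close together in macrophages (47.5 and 49.5 CPM) and Ptprc-low cells (40.9 and 40.7 CPM), Dpp7 is at 12.9 and 10.9 CPM in macrophages, and Ada at 10.1 and 9.74 CPM in Ptprc-low cells.

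Between the diets, Dpp4 leaned upwards in T and dendritic cells and downwards in the myeloid cells that carried little of it. Because 1 library stands for each diet, a difference between the diets cannot be told apart from a difference between the libraries. In T cells Dpp4 was at 52.7 CPM (58 UMIs in 244 barcodes) on the control diet and at 71.4 CPM (140 UMIs in 414 barcodes) on sitagliptin, a ratio of 1.36 (0.992 to 1.88). The CD8 T cell ratio was 1.33 (0.945 to 1.90). In dendritic cells the levels were 102 and 142 CPM, from 76 and 120 UMIs, a ratio of 1.39 (1.03 to 1.88). With classes from Leiden clusters that ratio was 1.21 (0.9503 to 1.54), with mixed barcodes kept 1.20 (0.906 to 1.59) and with a stricter marker gate 1.31 (0.926 to 1.89), so its interval then included 1. With the same mix of cDC1, cDC2 and mature cells in both libraries it was 1.28.

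Within the subsets every interval was wide: the ratio was 1.13 (0.639 to 2.09) in cDC1, 1.49 (0.872 to 2.60) in cDC2, 1.26 (0.774 to 2.06) in mature dendritic cells, 1.21 (0.774 to 1.94) in CD8 T cells not cycling and 1.51 (0.879 to 2.70) in cycling CD8 T cells. Dendritic cells were deeper in the sitagliptin library (median 5148.5 against 3552 UMIs). Thinned to 2000 UMIs, 21.0% of control and 30.1% of sitagliptin dendritic cells kept a Dpp4 UMI. The thinned share went the other way in cDC1 (60% and 46.2% of 15 and 26 barcodes), and was 13.2% and 26.1% in cDC2 and 20% and 27.5% in mature dendritic cells. RNA of other cells also differed: the 5 fibroblast markers summed to 206 CPM in control cDC2, with none at 0, and to 5.17 CPM in sitagliptin cDC2, with 4 at 0. In mature dendritic cells they summed to 108 and 3.83 CPM, with 1 and 4 at 0. The 8 mature dendritic cell markers summed to 453 and 1427 CPM in cDC2, with 3 and 2 at 0. The 6 monocyte markers summed to 1163 and 401 CPM in cDC2, with none at 0, and to 488 and 172 CPM in mature dendritic cells, with 0 and 1 at 0. In cDC1 the 7 macrophage markers summed to 851 and 242 CPM, with 0 and 1 at 0. The 7 macrophage markers summed to 370 and 221 CPM in CD8 T cells not cycling, with none at 0. The part of these in the Dpp4 ratios was not tested.

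In monocytes and macrophages together, Dpp4 was at 5.56 CPM (4.52 to 6.76) on the control diet and 3.61 CPM (2.91 to 4.42) on sitagliptin, a ratio of 0.649 (0.484 to 0.869). Both classes showed it, with 0.565 (0.377 to 0.846) in monocytes and 0.622 (0.400 to 0.964) in macrophages. Without the barcodes that held any dendritic cell marker UMI the ratio was 0.568 (0.405 to 0.795). Over all kept barcodes, where the mix of classes enters as well, the Dpp4 ratio was 1.17 (1.04 to 1.32).

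Counted by size, a gene was set down as higher or lower when it was past 1.5-fold with at least 20 UMIs over both libraries. In T cells 3 members had the counts, and 1 was lower (Dpp9), where 6.6% of 9112 genes were higher and 9.47% lower. In dendritic cells 2 members had the counts and 0 were past the fold, beside 7.3% higher and 17.8% lower of 6941 genes. In monocytes and macrophages all 5 had the counts and 1 was lower (Dpp4), beside 3.44% higher and 7.2% lower of 13054 genes. In NK cells 1 had the counts, Dpp8, and it was lower, beside 12.6% and 12.3% of 6149 genes. Ptprc-low cells had 4 members with the counts and 0 past the fold, beside 4.21% and 3.36% of 12648 genes.

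The Dpp8 ratio stayed close to 1 where counts were high: 1.06 (0.974 to 1.16) in monocytes and macrophages and 0.995 (0.884 to 1.12) in Ptprc-low cells. In T cells it was 1.16 (0.847 to 1.61) and in dendritic cells 0.958 (0.585 to 1.57). NK cells had 81.0 CPM of Dpp8 (34 UMIs) on the control diet and 44.5 CPM (29 UMIs) on sitagliptin, a ratio of 0.549 (0.323 to 0.928). Thinned to 2000 UMIs, however, 9.20% and 11.2% of NK cells had a Dpp8 UMI, so the share did not follow the CPM. Neutrophils had 83.2 and 37.0 CPM, a ratio of 0.445 (0.193 to 0.944) from 28 and 10 UMIs. The 7 macrophage markers summed to 4035 and 4512 CPM in that class, against 10577 and 9282 CPM in macrophages. Their part in the ratio was not tested.

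Dpp9 was lower on sitagliptin in monocytes and macrophages, at 12.6 against 9.38 CPM, a ratio of 0.744 (0.618 to 0.895), and in Ptprc-low cells its ratio was 0.921 (0.765 to 1.11). In T cells it was 0.588 (0.313 to 1.11) from 22 and 23 UMIs. Dpp7 had a ratio of 0.849 (0.704 to 1.02) in monocytes and macrophages, and 1.09 by the share of barcodes thinned to 2000 UMIs. The Ada ratio there was 0.796 (0.549 to 1.16), and 0.504 by the thinned share (16 and 10 barcodes). In Ptprc-low cells the Ada ratio was 0.965 (0.755 to 1.23). Over all kept barcodes Ada came to 0.725 (0.619 to 0.850), beside the lower share of Ptprc-low barcodes in the sitagliptin library (6.63% against 12.9%). Ada in T cells and in dendritic cells was too sparse for a ratio.

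**Figure D4:**
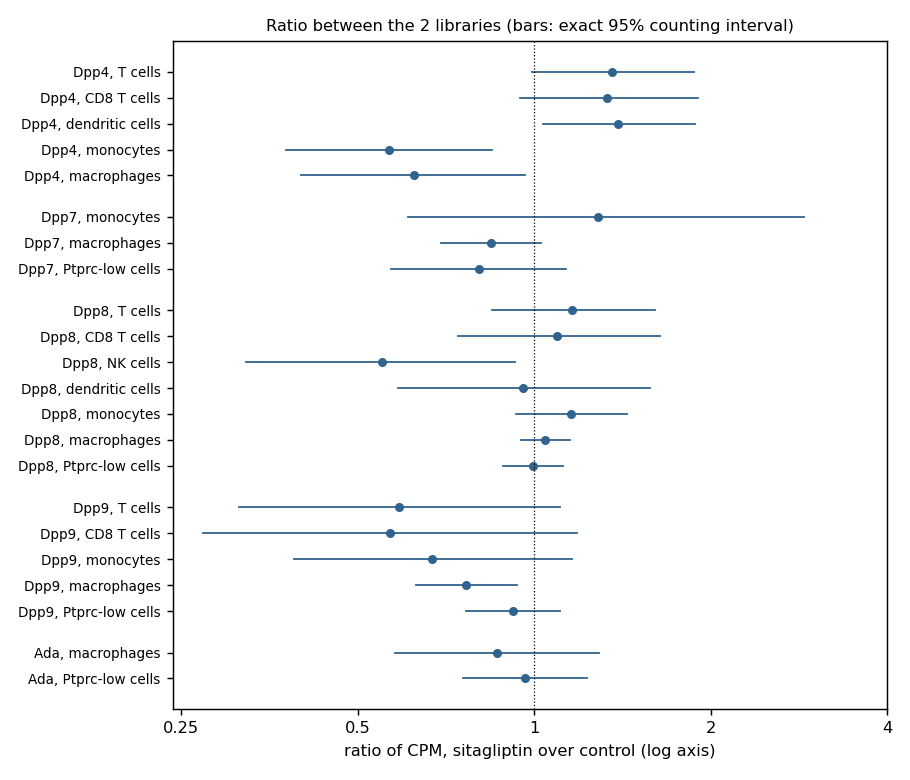
Ratio of CPM, sitagliptin over control (x axis, log scale), for each member in the classes with enough UMIs (y axis); bars are exact 95% counting intervals and the dotted line marks equal levels. Dpp4 lies at 1.36 and 1.39 in T and dendritic cells and at 0.565 and 0.622 in monocytes and macrophages, while Dpp8 in macrophages and Ptprc-low cells lies at 1.04 and 0.995.

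Genes of the same enzyme and substrate pathways were read from fixed lists, to be set beside the shares of all genes past the fold: 6.6% higher and 9.47% lower in T cells, 7.3% and 17.8% in dendritic cells, and 3.44% and 7.2% in monocytes and macrophages. With lists of this size, nothing is called particular to a list. Of 12 other prolyl and dipeptidyl peptidases, 8 had the counts in T cells and 2 were lower on sitagliptin: Prcp, a lysosomal prolyl carboxypeptidase, at 24.5 and 12.8 CPM, and Ctsc, the dipeptidyl peptidase that activates granzymes, at 291 and 167 CPM. The median log2 ratio of the list was -0.30 in T cells, beside -0.06 over all genes. In dendritic cells 1 of 7 was lower, the leucine aminopeptidase gene Lap3 (75.1 and 41.4 CPM), and in monocytes and macrophages 1 of 10, Fap, the closest relative of Dpp4 by sequence, at 2.50 and 1.09 CPM.

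Of 15 adenosine pathway genes, 2 of 10 with the counts were lower in T cells (Adora2b, an adenosine receptor, and Ahcy, which splits adenosylhomocysteine), and 0 were higher, beside 9.47% of all genes lower. In dendritic cells 2 of 7 were lower, beside 17.8% of all genes, the adenosine receptor Adora2a (59.0 and 22.4 CPM) and the nucleoside transporter Slc29a1 (18.8 and 10.6 CPM). In monocytes and macrophages 0 of 11 passed the fold. Entpd1, which with Nt5e makes adenosine outside the cell, was at 309 and 337 CPM there, and Nt5e at 66.4 and 68.2 CPM.

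Of 17 chemokines that DPP4 can cleave and their receptors, 10 had the counts in T cells, and Ccl3, Ccl4 and the receptor Ccr1 were lower. The chemokine Ccl4 was at 407 and 211 CPM there. In dendritic cells Ccl4 was higher (126 and 224 CPM) and Ccl3 lower (33.5 and 17.7 CPM) among 10. The ligands of Cxcr3 did not pass the fold: Cxcl9 was at 334 and 426 CPM and Cxcl10 at 307 and 245 CPM in dendritic cells. In monocytes and macrophages 2 of 12 were lower, the receptors Cxcr3 and Ackr3. The 5 receptors of peptide hormones that DPP4 cleaves, among them Glp1r, had too few UMIs in every class.

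Of 7 genes of the inflammasome that DPP8 and DPP9 restrain, 4 had the counts in T cells. Among these 1 was higher (Casp1) and 1 lower (Il1b), beside 6.6% and 9.47% of all genes. Casp1, the caspase that the inflammasome activates, was at 10.9 and 18.9 CPM from 12 and 37 UMIs. Its ratio of 1.73 had an interval that included 1 (0.884 to 3.65). In dendritic cells Casp1 was the 1 of 5 past the fold, at 17.4 and 40.2 CPM, beside 7.3% of all genes higher. In monocytes and macrophages, where all 7 had the counts, 0 passed the fold, with Nlrp1b at 22.0 and 24.4 CPM and Casp1 at 38.5 and 45.0 CPM. Il1b, mainly a myeloid cytokine, was at 999 and 453 CPM in T cells and at 2596 and 2558 CPM in monocytes and macrophages. Of 7 binding partners of DPP4, Igf2r, Cav1 and Fn1 were lower in dendritic cells among 5 with the counts, where 17.8% of all genes were lower. Fn1, a matrix protein gene, was at 407 and 227 CPM and Cav1 at 34.9 and 2.36 CPM (26 and 2 UMIs). The 5 fibroblast markers were lower as well, at 206 and 5.17 CPM in cDC2 and 108 and 3.83 CPM in mature cells, and their part in this was not tested. In T cells 0 of 6 partners passed the fold.

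Effector genes were read beside the T cell ratio of Dpp4. Of 10 effector and exhaustion genes 3 were lower on sitagliptin, the cytotoxic genes Gzma (760.1 and 411 CPM), Gzmb (3341 and 2043 CPM) and Prf1 (233 and 122 CPM). Of all genes in T cells, 9.47% were lower. The fall was not particular to T cells. In monocytes and macrophages 5 of the 10 were lower, Gzma, Gzmb, Prf1, Lag3 and Tigit, beside 7.2% of all genes. In NK cells Prf1 and Ifng were lower and Tox higher, beside 12.3% and 12.6% of all genes. The part of carried-over RNA in this was not tested.

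The genes whose levels were most like Dpp4 across classes were ranked by Pearson's r of log2(CPM + 10) over 14 classes in 2 libraries, 28 values that share libraries and depth. Among 11274 genes, r was 0.83 for Phlpp1 (a phosphatase), 0.81 for Lsp1 (an actin-binding protein of leukocytes), 0.79 for Psmb9 and 0.75 for Psmb8 (both immunoproteasome subunits), and 0.75 for Btla (an inhibitory receptor). Lrch1, Ube2h, Baz1a, Kdm4a and Wipf1 followed at 0.71 to 0.73. Btla dropped from 147 CPM in cDC1 and 67.5 CPM in mature dendritic cells to 0.933 CPM in NK cells and 0.635 CPM in macrophages. Psmb9 was at 749 CPM in cDC1 and 205 CPM in macrophages. With pseudocounts of 1 and 50, 7 and 5 of the 10 genes stayed in the list.

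Within T cells, barcodes with a Dpp4 UMI (45 control, 102 sitagliptin) were set beside those without (199 and 312), at median depths of 3885 against 3518 and 3998 against 3370 UMIs. Cycling CD8 cells made up 31.1% of those with Dpp4 against 21.6% of those without in the control, and 27.5% against 13.1% in the sitagliptin library. They were also deeper, at medians of 4704 and 5427 UMIs against 2883 and 3116 in CD8 T cells not cycling. At a thinned depth of 2000 UMIs, 14.04% and 17.4% of cycling and 15.9% and 17.3% of other CD8 T cells had a Dpp4 UMI. Cd8a, the CD8 co-receptor, was at 610 and 438 CPM with and without Dpp4 in the control library, a ratio of 1.39 (1.14 to 1.69), and at 488 and 322 CPM in the sitagliptin library, 1.52 (1.30 to 1.77). Mki67, a marker of dividing cells, had ratios of 1.44 (1.15 to 1.79) and 1.498 (1.25 to 1.79), from barcodes that were not thinned.

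Ccr7, the receptor that guides cells to lymph nodes, was among the 8 genes highest beside Dpp4 in T cells. It was at 141 against 54.2 CPM in the control library, a ratio of 2.60 (1.61 to 4.14), and at 114 against 59.0 CPM in the sitagliptin library, 1.93 (1.37 to 2.72). Within CD8 T cells alone its ratios were 2.60 (1.57 to 4.31) and 1.86 (1.26 to 2.74). The mature dendritic cell list summed to 277 against 174 CPM and 191 against 143 CPM. Ccr7 itself gave 141 against 54.2 CPM and 114 against 59.0 CPM of these sums, so they are no separate check on it. The cDC1 list summed to 4.27 against 5.77 and 3.74 against 9.83 CPM. Other lists went both ways. The cDC2 list was at 17.1 against 27.7 CPM in the control and 39.2 against 22.5 CPM in the sitagliptin library. The macrophage list was at 230 against 301 CPM and 314 against 208 CPM. The part of such RNA in the Ccr7 ratios was not tested. The other highest genes were Serpinb9b, a granzyme inhibitor (2.47 and 2.38), Mms22l (1.95 and 2.39), Ccl7 (1.89 and 2.20), Ipo9, Sap30, Pcbp1 and Pbk. Ccl7 is mainly a myeloid chemokine.

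The lowest beside Dpp4 in T cells was Gzmg, a granzyme, at 4.27 against 68.1 CPM and 1.87 against 33.0 CPM, with 1 UMI on the Dpp4 side in each library and ratios of 0.0627 (0.00156 to 0.363) and 0.0566 (0.00140 to 0.331). Iigp1 (interferon-induced), Cybb (the phagocyte oxidase), Phlda1, Serpinb1a, Nupr1, Wfdc17 and Syne1 followed. Of these, Cybb had ratios of 0.188 (0.0377 to 0.577) and 0.255 (0.0991 to 0.553). In the same T cells the neutrophil list summed to 0 against 26.5 CPM and 7.48 against 70.9 CPM. The monocyte list summed to 776.5 against 1003 CPM and 787 against 850 CPM. The macrophage sums given above were lower beside Dpp4 in the control library only. The part of such RNA in these ratios was not tested.

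Of 10 naive and memory T cell genes, 1 was past 1.5-fold higher in both libraries (Ccr7) and 3 lower (Klf2, Slamf6 and Satb1), where 2.06% of 9111 genes were higher and 3.94% lower. Satb1, a chromatin organiser, had ratios of 0.568 (0.386 to 0.813) and 0.628 (0.504 to 0.778). Klf2, a factor of resting T cells, was at 55.5 against 157 CPM and 50.5 against 89.9 CPM. In CD8 T cells alone the Klf2 ratios were 0.980 and 1.51, beside 3.37% of 7929 genes higher and 3.41% lower there, while Satb1 remained lower at 0.513 and 0.573. None of the 10 effector and exhaustion genes passed the fold in both libraries. Pdcd1, the gene of PD-1, had ratios of 1.12 (0.782 to 1.57) and 1.16 (0.861 to 1.54), and Ifng, the gene of interferon gamma, of 1.37 (0.811 to 2.25) and 2.53 (1.90 to 3.37).

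Within dendritic cells, 53 of 143 control and 65 of 146 sitagliptin barcodes had a Dpp4 UMI, at median depths of 3844 against 3228 and 6339 against 4161 UMIs. cDC1 made up 20.8% of those with Dpp4 and 4.44% of those without in the control library, and 26.2% and 11.1% in the sitagliptin library. Klf2 was highest beside Dpp4, at 544 against 175 CPM in the control, a ratio of 3.11 (2.36 to 4.13), and at 71.9 against 14.4 CPM in the sitagliptin library, 4.98 (2.05 to 14.6). Within cDC2 its ratio was 4.53 (3.18 to 6.58) in the control and 0.979 (0.194 to 4.55) in the sitagliptin library. Anxa1, a phospholipid-binding regulator of inflammation, was at 1124 against 509 CPM and 418 against 197 CPM, ratios of 2.21 (1.86 to 2.62) and 2.12 (1.62 to 2.78). Cd24a, a surface protein of cDC1, had ratios of 3.91 (1.58 to 11.02) and 1.86 (1.16 to 3.05).

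Rsl1d1, Slc25a20, Ckb, Lrrk2 and Mctp1 completed the 8 highest in dendritic cells. The lowest were Slpi, a secreted protease inhibitor, at 6.55 against 243 CPM and 4.64 against 48.1 CPM, and Cxcl3, a neutrophil-attracting chemokine, at 62.3 against 245 CPM and 30.2 against 236 CPM. Irf2bp2, Vdr (the vitamin D receptor), Ly6c2 (a monocyte marker), Lcor, Ms4a6b and Thbs1 followed, with Thbs1 at ratios of 0.543 (0.409 to 0.713) and 0.203 (0.125 to 0.317). The monocyte list summed to 619 against 948 CPM and 204 against 416 CPM. Its part in these ratios was not tested. Of the chemokine and receptor list, 0 of 10 were higher and 2 lower beside Dpp4 (Cxcl10 and Ccl3), where 3.31% of 6940 genes were higher and 3.34% lower. The subsets differed in Cxcl10. Within cDC2 it was lower, as was Ccl5, among 9 with the counts, beside 222 of 4918 genes lower. Within mature dendritic cells Cxcl10 was higher and Ccl4 lower among 7, beside 139 of 3862 genes higher and 177 lower.

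**Figure D5:**
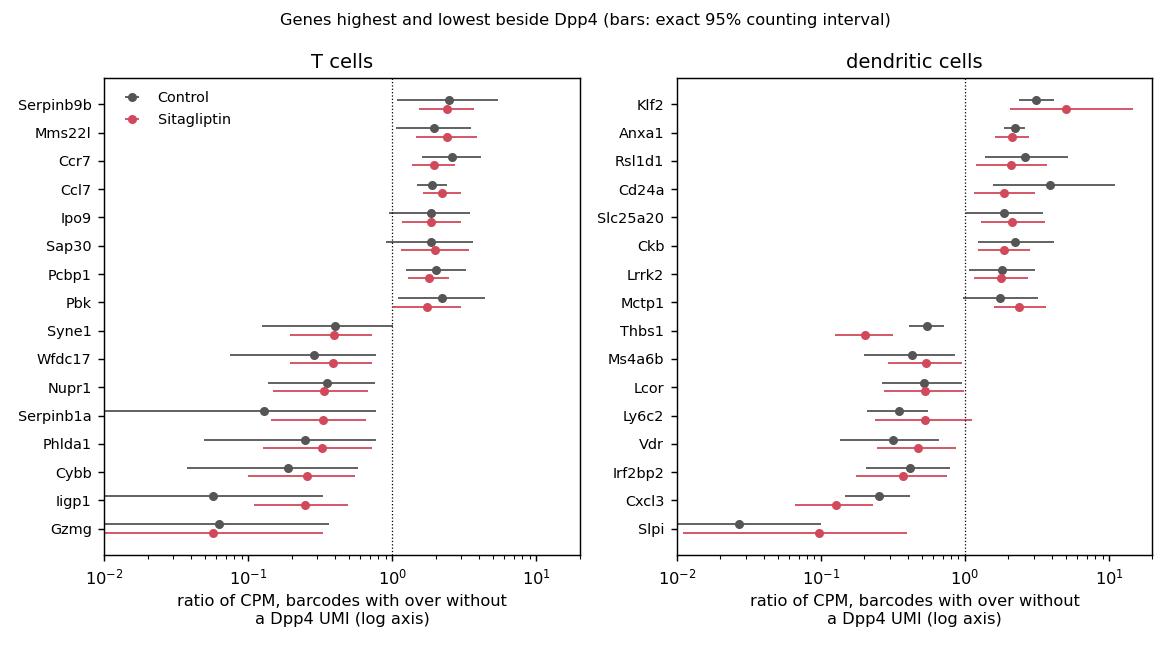
Ratio of CPM in barcodes with over those without a Dpp4 UMI (x axes, log scale), for the 8 highest and 8 lowest genes in T cells and in dendritic cells (y axes); the control library is in grey and the sitagliptin library in red, and bars are exact 95% counting intervals. In T cells Ccr7 lies at 2.60 and 1.93 and Gzmg at 0.0627 and 0.0566, and in dendritic cells Klf2 lies at 3.11 and 4.98 and Slpi below 0.1 in both libraries.

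Dpp8 and Dpp9 were also set beside Dpp4 from barcode to barcode, and each interval printed for them includes 1. In CD8 T cells Dpp8 was at 56.8 against 56.1 CPM and 63.8 against 60.4 CPM in barcodes with and without Dpp4, ratios of 1.013 (0.458 to 2.08) and 1.06 (0.637 to 1.71). In dendritic cells its ratios were 0.786 (0.355 to 1.66) and 0.820 (0.403 to 1.65), and in mature dendritic cells alone, from 27 Dpp8 UMIs in all, 0.561 (0.101 to 2.12) and 0.476 (0.107 to 1.71). Dpp9 in CD8 T cells had ratios of 0.592 (0.109 to 2.12) and 1.42 (0.460 to 4.14). An antisense gene overlaps Dpp4 (Gm13561, 37 UMIs beside 1186 of Dpp4) and another Dpp8 (Gm47350, 66 UMIs beside 6121). The sources used here do not say whether the counting used strand, so reads of each pair may not be cleanly split.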

How the data were processed

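The authors deposited, for each of 2 libraries, a gene by barcode matrix of unnormalized UMI counts, with a list of gene identifiers and symbols. For the aligner, counting program, genome build and annotation: not given in the sources used here. Every barcode held at least 2001 UMIs. Rows of 1 symbol were summed. Scrublet, as run in scanpy 1.11.5, called 0% of barcodes by its automatic threshold, so the 6% with the highest scores (522 and 586) were removed.

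Classes were called per barcode from marker UMIs, for example at least 2 of Cd3d, Cd3e, Cd3g and Trac for T cells, or C1qa, C1qb and C1qc at 3000 CPM or more for macrophages. T and NK cells and dendritic cells needed under 1000 CPM of the C1q genes, and T and NK cells under 2000 CPM of Cd74. Barcodes breaking these limits were mixed barcodes. Thresholds were set after marker values were seen. CD8 T cells had a Cd8a or Cd8b1 UMI and none of Cd4, Cd40lg or Foxp3, and cycling cells at least 3 UMIs of a cycling list. Dendritic cells are cDC1, cDC2 and mature cells, without plasmacytoid cells. Many barcodes (3059 and 3679) met no gate.

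The members and lists were chosen with earlier results of these data known. Named genes were the members, list genes, the 10 genes most correlated with Dpp4 across classes (at least 100 UMIs) and, in T and dendritic cells, the 8 highest and 8 lowest ratios beside a Dpp4 UMI, ranked by the library closer to 1 (at least 100 UMIs, and 50 CPM on either side). Genes at 0 on either side were not ranked. Mitochondrial, ribosomal, antigen receptor and unnamed genes were left out of ranks. CD8 T cells, cDC2, mature cells and monocytes were added to that comparison after values were seen. Scripts were checked on simulated counts.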

Additional observations from a re-analysis of the deposited data

Results flagged for a closer look

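The Dpp4 ratio of sitagliptin over control pointed in opposite directions in 2 cell groups: it was 1.39 in dendritic cells and 0.649 in monocytes and macrophages, so that the first was 2.14 times the second. With 1 library for each diet this difference between cell groups was not tested.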

How the results depend on the processing

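With 1 library for each diet no replicate could be left out, and depth limits Ada in T and dendritic cells, where no ratio was given. No paired analysis was possible because each group holds 1 library. For the Dpp4 and Ada ratios, 29 of 30 alternatives (clusters, doublets kept, mixed barcodes kept, a stricter gate, scaling without mitochondrial and ribosomal genes, thinning and, chosen after seeing the data, an equal mix of sub-classes and no barcodes with a dendritic cell marker) kept the direction and moved the value by less than its interval. Keeping mixed barcodes left the monocytes and macrophages unchanged, so for every member that alternative could not move there, although it is counted. Dpp4 ran from 1.15 (clusters) to 1.36 in T cells, from 1.20 to 1.48 in dendritic cells and from 0.568 to 0.674 in monocytes and macrophages. The exception was Ada in monocytes and macrophages, 0.504 by the share of thinned barcodes (16 and 10 of them), while among 62 alternatives for Dpp7, Dpp8 and Dpp9, Dpp7 in the same cells moved to 1.09 after thinning against 0.849. A further 3 crossed 1 within their intervals: Dpp7 in T cells 1.16 (stricter gate, against 0.749), Dpp7 in dendritic cells 0.910 (equal mix, against 1.10) and Dpp8 in dendritic cells 1.20 (clusters, against 0.958). The causes were not tested. Of 32 alternative levels of Dpp4 in sub-classes, 4 moved, all with mixed barcodes kept: 34.8 CPM in CD8 T cells not cycling, 34.6 CPM in cycling ones, 24.6 CPM in T cells without a clean call and 100.4 CPM in cDC1, which then came after mature dendritic cells (116 CPM). With a pseudocount of 50, 5 of the 10 genes most like Dpp4 stayed in the list.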

Other observations

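Monocytes, which carried little Dpp4, were also split by it after their values had been seen. Barcodes with a Dpp4 UMI (45 of 633 control and 46 of 1009 sitagliptin) had 49.6 against 19.8 CPM and 80.7 against 19.0 CPM of the 6 cDC2 markers, with 1 of the 6 at 0 among the 45. The 6 cDC1 markers summed to 64.5 against 34.8 CPM and 84.6 against 38.7 CPM, and 3 of them were at 0 beside Dpp4 in each library. The 8 T cell markers were higher as well, at 49.6 against 24.1 CPM and 23.1 against 18.1 CPM, with 3 and 6 at 0 beside Dpp4. The genes highest beside Dpp4 included Pkib (104 against 37.2 CPM and 150 against 55.3 CPM) and Ccl17, a chemokine of dendritic cells (109 against 38.0 CPM and 88.4 against 33.7 CPM). The lowest included Cxcl3 (14.9 against 380 CPM and 99.95 against 422 CPM), Arg1, the arginase of suppressive myeloid cells (228 against 1136 CPM and 408 against 1374 CPM), and Spp1, the gene of osteopontin (402 against 1810 CPM and 465 against 1487 CPM). The 7 macrophage markers summed to 506 against 699 CPM and 677 against 844 CPM. Whether these barcodes were dendritic cells that the gates placed among monocytes was not tested.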
